A study of Mus with 3 samples.

Results

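Type 17 T cells of the mouse lung, lymphocytes that carry RNA of interleukin-17A (IL-17A) or of genes tied to its production, were picked cell by cell from a single-cell RNA sequencing study of whole lung. A cell was a member when it held at least 2 summed UMIs of the CD3 chains Cd3d, Cd3e and Cd3g, at least 1 summed UMI of Il17a, Cd163l1 and Il23r, and 0 UMIs of Foxp3, Il1rl1, Il4, Il5, Il13, Cd8b1, Rag1, Dntt and Cd79a. A UMI, or unique molecular identifier, tags 1 captured RNA molecule. The rule found 179 members among 14441 kept cells. The members were thus selected on measured values, and the levels of the genes of the rule are given as a description without a test. The WT PBS library gave 63 members of 3908 kept cells, the WT OVA library 85 of 6092 and the DJ-1 KO OVA library 31 of 4441.

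The study set lungs of wild-type mice challenged with phosphate-buffered saline (PBS) beside lungs of wild-type and of DJ-1 knockout mice challenged with ovalbumin (OVA), the egg protein used to raise allergic airway inflammation. All mice were female and aged 6-12 weeks, and each library pooled the lung cells of 3 mice. With 1 library per group, animals cannot be told apart and no test between groups could be made. For WT PBS the sample title speaks of OVA, but the treatment label gives PBS, as does the name of the library, and PBS is used here. Whether sensitization came before the challenge, and in which cells DJ-1 was lacking, is not given in the sources used here.

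IL-17-producing T cells guard barrier tissues such as the lung, where IL-17A acts on epithelium and draws in neutrophils. In mice many of them are gamma delta T cells, which leave the thymus already able to make IL-17, respond to IL-23 and IL-1 without first meeting an antigen through a conventional alpha beta receptor, and settle in tissues for long periods. Others are alpha beta T helper 17 cells, which acquire the programme after meeting antigen. The T cell receptor chain genes looked for, among them Trdc, Trac, Trbc1 and Trbc2, were absent from the count matrices. The gamma delta label was therefore checked only through other genes, and the 2 lineages could not be separated by their receptors.

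Il17a encodes the cytokine itself (chr1:20730905-20734496 in GRCm38.p6, the build the authors call mm10). It was detected in 24 of 63 WT PBS members (38.1%), 33 of 85 WT OVA members (38.8%) and 16 of 31 DJ-1 KO OVA members (51.6%). Cd163l1 encodes the scavenger receptor SCART1, a surface protein of IL-17-producing gamma delta cells (chr7:140197218-140231145). It was detected in 46 (73.0%), 61 (71.8%) and 18 (58.1%) members of the same libraries. Il23r, the IL-23 receptor chain (chr6:67422932-67491855), was detected in 28 (44.4%), 20 (23.5%) and 9 (29.0%). Cd163l1 was the most often detected of the 3 in each library, and detection depends on depth, since the median member held 4996 UMIs in WT PBS, 2513 in WT OVA and 2612 in DJ-1 KO OVA.

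Few members carried the whole signature at once. All 3 genes were found in 12 of the 179 members, Il17a with Cd163l1 in 29, Cd163l1 with Il23r in 19 and Il17a with Il23r in 4. Cd163l1 alone marked 65 members (36.3%), Il17a alone 28 and Il23r alone 22. Most members were thus placed by 1 gene alone, which the plot of detected combinations gives by library.

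**Figure D1:**
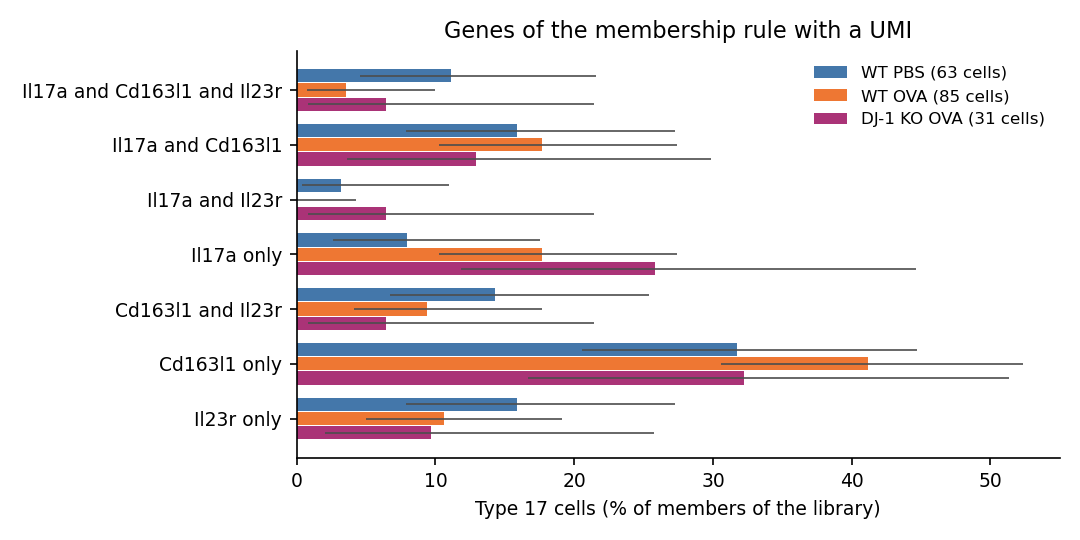
Members of each library by which of Il17a, Cd163l1 and Il23r they held (vertical axis), as a percentage of that library's members (horizontal axis), with 95% Clopper-Pearson intervals that cover counting error only. Cd163l1 alone is the most frequent class over the 3 libraries, at 20 of 63 members in WT PBS, 35 of 85 in WT OVA and 10 of 31 in DJ-1 KO OVA.

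Near the thresholds, 43 members held a single UMI of the 3 type 17 genes (11 in WT PBS, 24 in WT OVA and 8 in DJ-1 KO OVA) and 15 held 2. Exactly 2 CD3 UMIs were held by 2, 16 and 12 members, and 25 cells just outside the rule held 1 CD3 UMI beside a type 17 UMI. A further 55 cells met both minimum counts but held a UMI of an excluded gene, most often Cd8b1 (28 cells) or Cd79a (14). The median member held 8 type 17 UMIs in WT PBS, 5 in WT OVA and 3 in DJ-1 KO OVA.

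Blk, a Src-family kinase of B cells that is also made by IL-17-producing gamma delta cells (chr14:63372837-63417187), was named as a marker of the cells but not used to pick them. It was detected in 43 of 63 WT PBS members (68.3%), 44 of 85 WT OVA members (51.8%) and 13 of 31 DJ-1 KO OVA members (41.9%). In the other CD3 cells, which met the same CD3 and zero-UMI conditions but held no type 17 UMI, it was detected in 2.32%, 3.28% and 2.30% of cells. B cells made Blk at frequencies of 48.9%, 33.7% and 25.8%. The 5 markers of B and plasma cells summed to 14, 10 and 1 UMIs in the members, mostly of the B cell receptor chain gene Cd79b, while Ms4a1 and Mzb1 were at 0, and the rule had removed cells with a UMI of Cd79a. A type 17 UMI was found in 0 of 626 B cells of WT PBS, which allows a share of cells with such a UMI of up to 0.479%, in 0 of 852 of WT OVA (up to 0.352%) and in 1 of 260 of DJ-1 KO OVA. B cells were shallower than members, with medians of 3045, 1330 and 1124 UMIs, so these limits concern detection and not expression.

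Libraries were unequal in depth and shared barcodes. They held 26548669, 24438516 and 17339386 UMIs, and the WT PBS and DJ-1 KO OVA libraries had 372 cell barcodes in common, against 6 and 5 for the other pairs. The lower-UMI cell of each such pair had been left out (306 cells in WT PBS and 65 in DJ-1 KO OVA), and 4 members carry a shared barcode. Park7, which encodes DJ-1 (chr4:150897133-150909921), stood in members at 228 CPM (UMIs of the gene per 1e6 UMIs of the cells summed) in WT PBS, 154 in WT OVA and 18.7 in DJ-1 KO OVA, where its 3 UMIs lay in 3 of 31 cells. The knockout library was therefore low in Park7 but not at 0, and the wild-type libraries did not reach down to its level.

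Some members also held much RNA of other cell types. Mixed cells, defined after seeing the data as those with 10 or more summed UMIs of any 1 of 6 marker lists (B and plasma cells, macrophages, neutrophils, epithelium, endothelium, fibroblasts), made up 5 of 63 members in WT PBS, 16 of 85 in WT OVA and 8 of 31 in DJ-1 KO OVA. Most of these 29 cells were large, though a WT OVA cell with 2101 UMIs lay below that library's member median of 2513. Together the mixed cells held 26.8%, 46.5% and 66.3% of all member UMIs. Macrophage markers passed the limit in 4, 8 and 8 cells and epithelial markers in 2, 13 and 7. The highest count of a list in a member was 650 UMIs of neutrophil and 555 of macrophage markers in WT PBS, 1407 of macrophage and 903 of epithelial markers in WT OVA, and 2491 of macrophage markers in DJ-1 KO OVA. Epithelial markers reached 13 UMIs in a WT PBS member and 25 in a DJ-1 KO OVA member, against medians of 4 and 5. The 6 macrophage genes summed to 2198 CPM in WT PBS, 7495 in WT OVA and 58255 in DJ-1 KO OVA, and to 40.8, 166 and 536 CPM without mixed cells. The 5 thymocyte markers summed to 1, 18 and 2 UMIs, with Rag2 and Ptcra at 0. The Scrublet doublet caller marked 1, 2 and 0 members, all of them mixed cells. Whether the other mixed cells were doublets was not tested. Because mixed RNA differs so much between libraries, each result below is given with all members and, where it matters, without mixed cells.

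**Figure D2:**
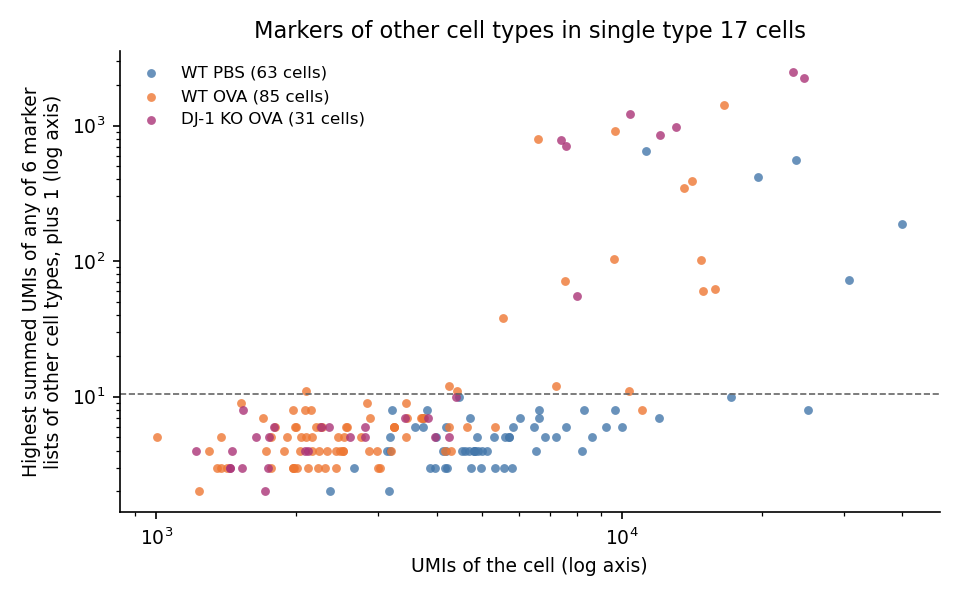
Each point is 1 of the 179 members, placed by the UMIs it held (horizontal, log axis) and by its highest summed UMIs of any 1 of the 6 marker lists of other cell types, plus 1 (vertical, log axis), with the limit of 10 dashed. The 24 cells with more than 15 such UMIs are among the larger cells of each library, 5 cells lie between 10 and 15, and 56 lie between 5 and 9.

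The share of members among T cells was lowest in the knockout library. Of all CD3 cells, members made up 5.92% for WT PBS (63 of 1065, 95% Clopper-Pearson interval 4.58 to 7.505), 6.72% for WT OVA (85 of 1265, 5.40 to 8.24) and 2.63% for DJ-1 KO OVA (31 of 1177, 1.80 to 3.72). The knockout interval lay below those of both wild-type libraries, which overlapped each other. Of all kept cells the members made up 1.61%, 1.40% and 0.698%, and 1.01%, 0.685% and 0.259% after every cell was thinned to 1000 UMIs. With this thinning the shares of CD3 cells were 7.88%, 6.83% and 1.97%, over 482, 571 and 458 cells, after 135, 395 and 972 kept cells too shallow to thin had been left out. The denominator mattered, since many CD3 cells held a UMI of an excluded gene. Among the 624, 755 and 465 CD3 cells past the zero-UMI conditions, a denominator chosen after seeing the data, the shares were 10.1% (7.85 to 12.7), 11.3% (9.09 to 13.7) and 6.67% (4.57 to 9.33), and the knockout interval overlapped both others. With thinning, the shares over this denominator were 9.74% (6.99 to 13.1), 8.76% (6.31 to 11.8) and 3.52% (1.62 to 6.57). The knockout interval then lay below that of WT PBS and overlapped that of WT OVA. These intervals cover counting error only, and mouse-to-mouse variation was not measured. Fewer type 17 cells and less type 17 RNA per cell cannot be told apart by such a share.

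Members were next compared with the 1665 other CD3 cells (561, 670 and 434 per library), using UMIs summed per class and library and edgeR's quasi-likelihood test with library as a term, Benjamini-Hochberg adjusted. The 15 genes of the rule had no part in it. Of 7867 genes tested, 353 were higher in type 17 cells (4.49%) and 216 lower (2.75%) at an adjusted p below 0.05. Without mixed cells of either class, 432 of 6526 were higher (6.62%) and 320 lower (4.9%), and 403 genes were called under both settings, 400 of them in the same direction. The number of calls leaned on single libraries, since 194 genes were called without WT OVA, 621 without WT PBS and 1036 without DJ-1 KO OVA. Of 97 named genes called, 52 were still called without WT OVA; Sox13, Rora, Pdcd1, Il18r1, Il12rb1, Ltb4r1, Ccr6, Batf, Kcnk1, Aqp3, Ramp1, Tmem176b and 5830411N06Rik were among the 45 that were not, with their directions unchanged. The 3 libraries, each of another group, serve as the replicates of this comparison. With library as a term, its p-values cover how the class difference varied between them. Mouse-to-mouse variation was not measured.

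Genes of the gamma delta and innate-like lineage were higher almost as a block, 13 of the 14 tested with a median log2 fold change of 2.44, against a median of -0.01 over all genes tested. Without mixed cells all 13 tested were higher. This list was drawn up with earlier results of these data known and is not independent evidence of its direction. In members Blk stood at 372, 278 and 137 CPM, in the order PBS, OVA and knockout, and at 11.6, 15.9 and 11.2 CPM in other CD3 cells. Every member value lay above every value of the other cells, and the log2 fold change was 4.31 ± 0.26 (SE, edgeR adjusted p = 0.0003986).

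Sox13, a transcription factor that directs gamma delta thymocytes toward IL-17 production (chr1:133382300-133424459), stood at 57.7, 82.9 and 37.4 CPM against 4.64, 2.04 and 11.2 CPM (log2 fold change 3.52 ± 0.53, edgeR adjusted p = 0.006433). It was seen in 44 of 179 members and in 17 of 1665 other CD3 cells. Zbtb16, which encodes PLZF, the factor of innate-like T cells, stood at 87.6, 74.0 and 43.6 CPM against 8.61, 10.7 and 9.48 (2.83 ± 0.31, edgeR adjusted p = 0.002392). Serpinb1a, a protease inhibitor, stood at 169, 133 and 68.5 CPM against 14.9, 22.5 and 12.1 (2.87 ± 0.27, edgeR adjusted p = 0.001677). For all of these genes every member value lay above every value of other CD3 cells. How many of all tested genes were apart in this way, here or in the comparisons below, was not counted. With all cells the DJ-1 KO OVA members held the lowest member value. Mixed cells held 66.3% of the member UMIs in that library, and their part in this was not tested.

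The others of this list that rose above the other CD3 cells were the potassium channel Kcnk1, the actin cross-linker Actn2, the water and glycerol channel Aqp3, the transcription cofactor Lmo4, the calcitonin receptor partner Ramp1, the growth factor receptor Igf1r, the paired membrane proteins Tmem176a and Tmem176b, and 5830411N06Rik, also named Scart2. Etv5, an ETS-family factor, was not called (log2 fold change -0.94 ± 0.57, edgeR adjusted p = 0.4108). Among genes outside the lists with the largest differences, Tns4, a focal adhesion protein, stood at 87.6, 41.4 and 18.7 CPM against 1.32, 1.53 and 0.862 (5.21 ± 0.50, edgeR adjusted p = 0.001677). The lens crystallin gene Cryba4 and the signalling adaptor gene Clnk followed with log2 fold changes of 4.59 ± 0.54 and 4.33 ± 0.52. Vwf and Ace, which endothelium makes, were also among the highest, and 93.4% and 89.5% of their member UMIs lay in mixed cells.

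Rora, which encodes a nuclear receptor that promotes the type 17 programme, stood at 901, 811 and 779 CPM against 262, 390 and 411 (1.23 ± 0.19, edgeR adjusted p = 0.007336). Rora was thus higher in members in each library. Of the 11 transcription factors of the type 17 programme 2 were higher and 1 was lower. Batf, an AP-1 factor of activated T cells, was the lower one (25.6, 29.6 and 18.7 CPM against 48.7, 55.7 and 63.8, -1.15 ± 0.29, edgeR adjusted p = 0.04889). Maf passed the test without mixed cells (1.03 ± 0.23, edgeR adjusted p = 0.002862) but not with all cells (0.68 ± 0.31, edgeR adjusted p = 0.2557).

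Some receptors through which type 17 cells sense inflammation were higher in members than in other CD3 cells. Il1r1, the IL-1 receptor (chr1:40222480-40316201), stood at 175, 109 and 68.5 CPM against 8.28, 16.9 and 12.9 (log2 fold change 3.25 ± 0.37, edgeR adjusted p = 0.002662). Il17re, a chain of the receptor for IL-17C, stood at 100.4, 82.9 and 37.4 CPM against 10.6, 11.2 and 14.7 (2.65 ± 0.34, edgeR adjusted p = 0.003889). Of the 17 receptors tested, 6 were higher, the others being the IL-18 receptor Il18r1 (1.20 ± 0.19), the IL-12 and IL-23 receptor chain Il12rb1 (1.99 ± 0.48), the IL-2 receptor alpha chain Il2ra (2.09 ± 0.31) and the leukotriene B4 receptor Ltb4r1 (2.61 ± 0.46). The lower 2 were the IL-6 receptor gene Il6ra (-2.09 ± 0.29, edgeR adjusted p = 0.00505) and the IL-21 receptor gene Il21r (-1.62 ± 0.23, edgeR adjusted p = 0.005174). Il7r, the IL-7 receptor, was called only without mixed cells (0.63 ± 0.19, edgeR adjusted p = 0.02572; 0.43 ± 0.17 with all cells, adjusted p = 0.1974).

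Homing genes went both ways. Of 18 tested, 8 were not called, 5 were higher (Ccr6, Cxcr6, Ccr2, Itgae, Gpr183) and 5 lower, among them Ccr7, S1pr1, Klf2 and Itga4. Cxcr6, a chemokine receptor of tissue T cells, stood at 491, 405 and 255 CPM against 35.4, 98.7 and 80.2 (log2 fold change 2.51 ± 0.34, edgeR adjusted p = 0.004511). Ccr2, which answers inflammatory monocyte chemoattractants, stood at 534, 373 and 156 CPM against 81.8, 81.3 and 79.3 (2.03 ± 0.26, edgeR adjusted p = 0.003777). With all cells, Cxcr6 and Ccr2 were higher in members than in other CD3 cells of every library. The DJ-1 KO OVA members lay nearest to those other cells. Mixed cells held 66.3% of the DJ-1 KO OVA member UMIs. Without them, Cxcr6 stood at 570 CPM in DJ-1 KO OVA members with a Cd163l1 UMI and at 576 in those without. In WT OVA members these values were 650 and 546 CPM.

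Ccr7, the receptor that leads T cells into lymph nodes, stood at 201, 160 and 68.5 CPM against 727, 625 and 382 (-2.10 ± 0.19, edgeR adjusted p = 0.001496). The classes did not overlap for this gene. Among 12 genes of conventional and naive T cells, 10 were lower, and without mixed cells all 12 were lower, with a median log2 fold change of -2.07 with all cells. Cd4 was detected in 21 of 179 members (11.7%) and in 615 of 1665 other CD3 cells (36.9%), at 38.4, 38.5 and 24.9 CPM against 166, 139 and 183 (-2.23 ± 0.24, edgeR adjusted p = 0.002138). Lef1, a factor of naive T cells, fell to 70.5, 68.1 and 43.6 CPM against 453, 291 and 253 (-2.50 ± 0.22, edgeR adjusted p = 0.001496). Cd8a was detected in 3 members, all of WT OVA, while Cd8b1 was kept at 0 by the rule.

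Costimulatory and receptor-signalling genes moved in part. Of 16 costimulation and activation genes, 6 were lower (Cd28, Cd27, Tnfrsf4, Tnfrsf18, Cd5, Cd6) and 3 higher (Pdcd1, Cd44, Nr4a1), with 7 not called. Without mixed cells the same 6 were lower and 5 were higher (Icos and Rgs1 too), with a median log2 fold change of 0.017. Cd28, the main costimulatory receptor of conventional T cells, stood at 156, 198 and 255 CPM against 480.2, 576 and 669 (log2 fold change -1.56 ± 0.19, edgeR adjusted p = 0.003131). Pdcd1, which encodes the inhibitory receptor PD-1 (chr1:94038305-94052553), stood at 186, 157 and 81.0 CPM against 7.29, 28.6 and 44.0 (2.73 ± 0.52, edgeR adjusted p = 0.01673). Members and other cells did not overlap for Cd28 or Pdcd1, and with all cells the gap for Pdcd1 was narrowest in DJ-1 KO OVA. In that library mixed cells held 66.3% of the member UMIs, and their part in the gap was not tested.

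Of 12 receptor-signalling genes, 5 were lower, among them Lck, Fyn, Txk and Cd2. The kinase gene Lck stood at 94.0, 118 and 112 CPM against 252, 325 and 478 (-1.66 ± 0.19, edgeR adjusted p = 0.002392). Without mixed cells Zap70 was called higher. Of 11 natural killer and cytotoxic genes, 5 were lower (Klrd1, Gzma, Gzmk, Nkg7, Xcl1). Nkg7, a granule protein of cytotoxic cells, stood at 29.9, 59.2 and 68.5 CPM against 292, 224 and 252 (-2.44 ± 0.32, edgeR adjusted p = 0.003977), and Gzmk was at 0 UMIs in the members, at least 5.62-fold lower.

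**Figure D3:**
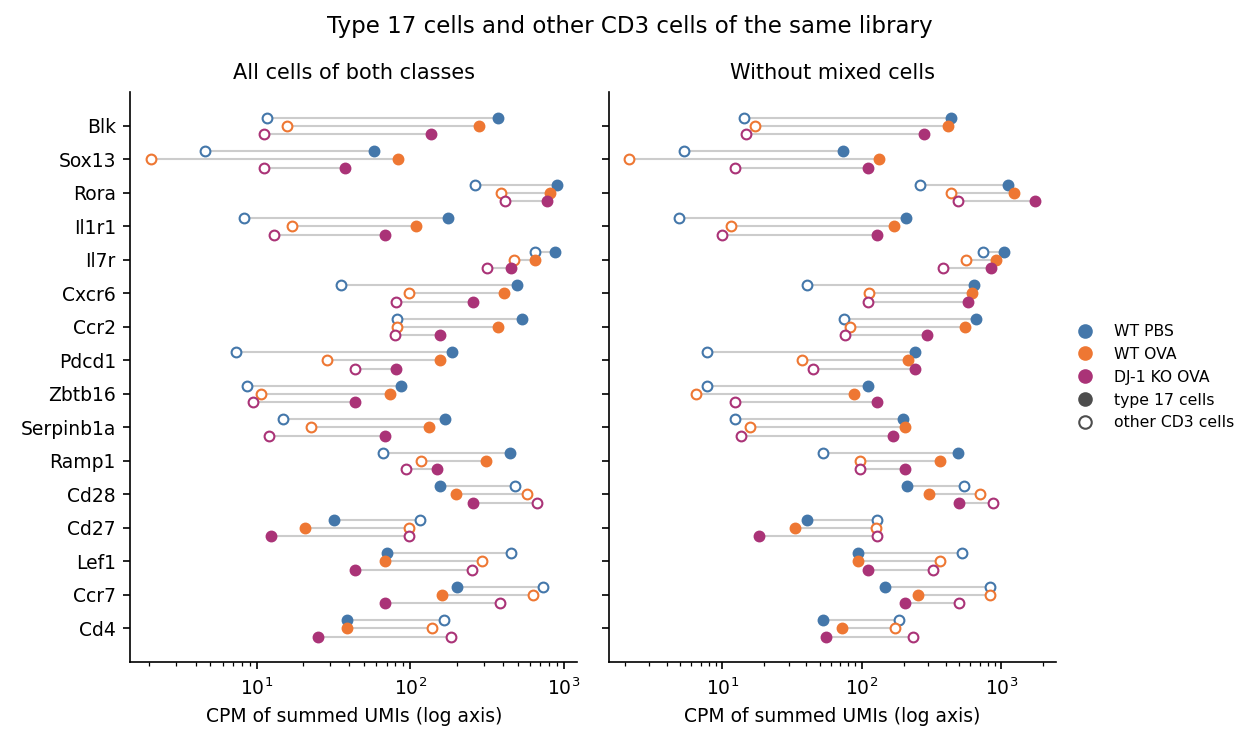
CPM of summed UMIs (log axis) of 16 genes in type 17 cells (filled points) and other CD3 cells (open points) of each of the 3 libraries, with a grey line joining the 2 classes of a library, for all cells (left) and without mixed cells (right). With all cells Blk lies between 137 and 372 CPM in type 17 cells and between 11.2 and 15.9 CPM in other CD3 cells, while Cd28, Cd27, Lef1, Ccr7 and Cd4 lie on the lower side.

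Cytokine RNA other than Il17a was sparse. Il17f, the close relative of Il17a next to it in the genome (chr1:20777146-20785274), was detected in 3, 2 and 0 members, with 20 UMIs in all, 14 of them in 1 cell. Il22 came from 1 WT PBS member with 105 UMIs and 1 UMI in WT OVA. Of 15 effector cytokines 8 could be tested. Lif and Tnf were higher, with 61.9% and 91.6% of their member UMIs in mixed cells. Without mixed cells Tnf was still called higher, while Lif was not among the 6 cytokines tested. Areg, which encodes the tissue repair factor amphiregulin, stood at 34.2, 145 and 125 CPM against 36.1, 68.0 and 20.7 and did not pass the test (1.04 ± 0.44, edgeR adjusted p = 0.2194).

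Of 16 immediate early and heat shock genes 8 were higher (Fos, Fosb, Jun, Egr1, Dusp1, Atf3, Zfp36, Nr4a1); such genes also respond to tissue dissociation, and its part was not tested. Fos, a subunit of AP-1, stood at 692, 1462 and 940.4 CPM against 326, 666 and 692 (0.87 ± 0.17, edgeR adjusted p = 0.01953). Mixed cells held 66.2% of its member UMIs, and without them the values were 300.4, 891 and 1182 CPM against 143, 332 and 488 (1.15 ± 0.18, edgeR adjusted p = 5.768e-05). Of 15 glycolysis genes 4 were higher (Hk2, Pfkp, Aldoa, Pgam1) and 11 were not called, and without mixed cells Hk2, Pfkp and Slc16a3 were higher of 14 tested. Hk2, which commits glucose to glycolysis, stood at 141, 157 and 299 CPM against 27.2, 50.1 and 61.2 (2.07 ± 0.23, edgeR adjusted p = 0.002392).

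Th2-like CD3 cells (21, 47 and 78 per library) held a UMI of Il4, Il5, Il13 or Il1rl1 and none of the type 17 genes. Members differed from them by edgeR in 6 genes that were higher (0.148% of 4062 tested) and 8 that were lower (0.197%). Without mixed cells 43 of 2633 were higher (1.63%) and 36 lower (1.37%), with 7 genes called under both settings. The count was 1 without WT OVA, where none of the genes named next stayed called, 97 without WT PBS and 66 without DJ-1 KO OVA. Blk and Igf1r were higher, and Tnfrsf4, Tnfrsf18, Gata3 and Cd4 were among those lower. Gata3, the master factor of type 2 cells, stood at 79.0, 53.3 and 56.1 CPM in members against 546, 598 and 1140 CPM (log2 fold change -3.49 ± 0.32, edgeR adjusted p = 0.01844; -3.50 ± 0.31 without mixed cells, adjusted p = 1.693e-05). The costimulatory receptor gene Tnfrsf4, OX40, stood at 14.9, 56.2 and 31.1 CPM against 163, 592 and 419.9 (-3.52 ± 0.24, edgeR adjusted p = 0.01012).

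Several type 17 genes were called against Th2-like cells only once mixed cells were left out. Il1r1 then differed by a log2 fold change of 5.79 ± 0.72 (edgeR adjusted p = 0.0002759) and Sox13 by 5.33 ± 0.88 (edgeR adjusted p = 0.002696). Of the gamma delta list, 2 of 9 tested genes were higher with all cells and 9 of 11 without mixed cells. Sox13 and Aqp3 were among these 11 but were not tested with all cells. Of 11 cytokine and alarm receptors tested with all cells, 0 were called. Without mixed cells 3 of 12 were higher (Il1r1, Il18r1, Il17re), while Il2ra and Ltb4r1 were not called. Areg stood at 458, 293 and 978 CPM in Th2-like cells and was lower in members only without mixed cells (-3.91 ± 0.58, edgeR adjusted p = 0.001271; adjusted p = 0.1044 with all cells). Of 17 homing genes tested against Th2-like cells, 0 were called with all cells, and only Gpr183 of 13 without mixed cells. Cxcr6, Ccr2, Rora, Pdcd1, Cd44, Hk2 and Fos were called under neither setting. That does not show that the classes are alike in them.

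Foxp3 CD3 cells, the regulatory T cells of the lung (24, 103 and 55 per library), differed from members in 128 genes higher (2.61% of 4909) and 81 lower (1.65%) by edgeR. Without mixed cells 139 of 2904 were higher (4.79%) and 119 lower (4.1%), and 137 genes were called both ways, 135 in the same direction. Leaving out WT OVA gave 373 calls, WT PBS 172 and DJ-1 KO OVA 304. Of the gamma delta list 9 of 12 tested were higher, with Il1r1 (log2 fold change 3.78 ± 0.38, edgeR adjusted p = 0.003878) and Cxcr6 (2.89 ± 0.46, edgeR adjusted p = 0.01631) among the other genes higher. Of 14 costimulation genes 9 were lower (Cd28, Cd27, Ctla4, Tnfrsf4, Tnfrsf9, Tnfrsf18, Cd5, Cd6, Tox) and Cd44 was higher. Without WT PBS, Cd28, Cd44 and Tox were not called, nor were Cd44 and Tox without DJ-1 KO OVA.

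Ctla4, the checkpoint receptor of regulatory cells, stood at 105, 234 and 274 CPM in members against 1543, 1414 and 2251 in Foxp3 cells (-3.05 ± 0.27, edgeR adjusted p = 0.002844). Il10, an anti-inflammatory cytokine, stood at 0, 2.96 and 0 CPM in members against 58.2, 137 and 268 (-6.33 ± 0.60, edgeR adjusted p = 0.003409). Neither gene overlapped between the classes. Gata3 was lower in members than in Foxp3 cells too (-2.64 ± 0.29, edgeR adjusted p = 0.005996), and Il7r was higher (1.03 ± 0.20, edgeR adjusted p = 0.03517), though not called without WT PBS. Of 16 cytokine and alarm receptors tested, 4 were higher than in Foxp3 cells (Il1r1, Il18r1, Il7r, Il17re) and 1 was lower. Il2ra, Il12rb1 and Ltb4r1 were not called.

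Within the type 17 cells, those with a Cd163l1 UMI (46, 61 and 18 cells) were set against those without (17, 24 and 13), which by the rule must carry Il17a or Il23r. The difference in Cd163l1, Il17a and Il23r is therefore set by the split. With all cells, 1 of 1903 genes was higher in the Cd163l1-positive cells (0.0525%) and 0 were lower (0%) by edgeR, while 101 genes had an unadjusted p below 0.05 and DESeq2 called 2. Without mixed cells, 11 of 1326 genes were higher (0.83%) and 7 lower (0.528%). The count with all cells was 0 without WT OVA, 41 without WT PBS and 7 without DJ-1 KO OVA.

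The gene called with all cells was Ccl5, a chemokine of activated lymphocytes, at 398, 1634 and 266 CPM against 0, 9.27 and 12.3 CPM (log2 fold change 6.71 ± 0.54, edgeR adjusted p = 0.006609). It was detected in 19 of 125 Cd163l1-positive and 2 of 54 negative cells. A single WT OVA cell held 309 of that library's 376 Ccl5 UMIs, and 1 WT PBS cell held 117 of 140, so few cells made up the difference.

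Pdcd1 was higher in the Cd163l1-positive cells and Cd28 in the negative ones, each past the threshold only without mixed cells. Pdcd1 was detected in 63 of 125 positive and 6 of 54 negative cells, and stood at 236, 217 and 152 CPM against 34.4, 27.8 and 12.3 (log2 fold change 2.95 ± 0.38, edgeR adjusted p = 0.05038; 2.96 ± 0.46 without mixed cells, adjusted p = 1.599e-06). Cd28 was detected in 23 of 125 and 36 of 54 cells, and stood at 65.3, 82.6 and 139 CPM against 430.7, 445 and 368 (-2.28 ± 0.28, edgeR adjusted p = 0.05038; -2.25 ± 0.30 without mixed cells, adjusted p = 2.849e-08). In all 3 libraries the order was the same for both genes, whether or not mixed cells were kept.

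Other genes also passed the test only without mixed cells. Lck was detected in 21 of 125 positive and 37 of 54 negative cells (-1.67 ± 0.35, edgeR adjusted p = 0.001035; adjusted p = 0.4145 with all cells). Il1r1 stood at 204.5, 152 and 114 CPM against 86.1, 18.5 and 24.5 and passed only without mixed cells (2.28 ± 0.46, edgeR adjusted p = 0.0004832; adjusted p = 0.416 with all cells). Blk was detected in 81 of 125 and 19 of 54 cells, at 555, 509 and 314 CPM against 162, 188 and 209.5 CPM without mixed cells (edgeR adjusted p = 0.00133, and 0.4145 with all cells). Klf2, which maintains quiescence and recirculation in T cells, was higher in positive cells (2.32 ± 0.41, edgeR adjusted p = 2.764e-05), as was Ikzf2, the Ikaros family member Helios (1.49 ± 0.39, edgeR adjusted p = 0.02153), named after its value was seen. Ctla4 was lower in positive cells (-1.24 ± 0.33, edgeR adjusted p = 0.02676), but its DJ-1 KO OVA values ran the other way at 970 against 367 CPM.

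5830411N06Rik, or Scart2, lies beside its relative Cd163l1 on chromosome 7 (chr7:140247279-140300734). It was detected in 1 of 125 Cd163l1-positive and 17 of 54 negative cells, in 6, 7 and 4 negative cells of the 3 libraries and in 1, 0 and 0 positive cells. Without mixed cells its log2 fold change was -5.62 ± 0.92 (edgeR adjusted p = 4.954e-06), and with all cells it had too few UMIs to be tested. Because the 2 genes are relatives, the authors' read assignment could divide reads between them, which was not tested. Ccr6, the chemokine receptor of type 17 helper cells, was detected in 7 of 125 and 18 of 54 cells, Sox13 in 40 of 125 and 4 of 54, and Il17f in 0 of 125 and 5 of 54, without a test. Ccr2 was detected in 94 of 125 and 40 of 54 cells (log2 fold change 0.43 ± 0.23, edgeR adjusted p = 0.8878, and 0.51 ± 0.26 with adjusted p = 0.4916 without mixed cells), and Rora had a log2 fold change of 0.12 ± 0.17 (edgeR adjusted p = 0.983). Neither passed the test, which does not show that the subsets are alike in them.

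**Figure D4:**
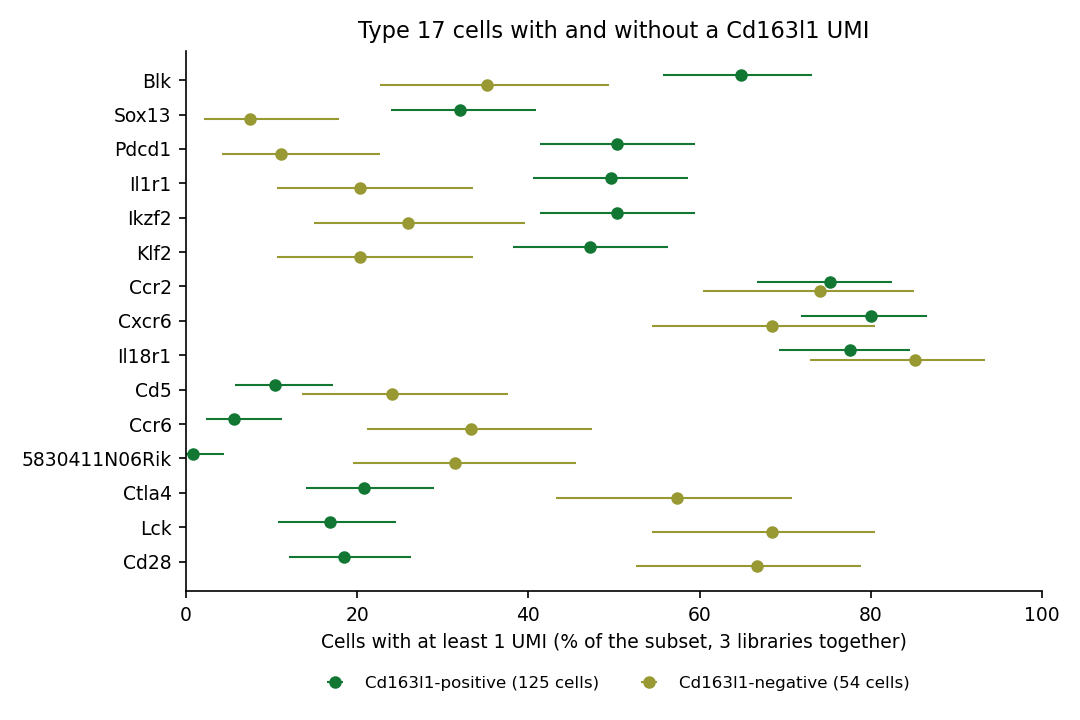
Percentage of Cd163l1-positive (125 cells) and Cd163l1-negative (54 cells) type 17 cells with at least 1 UMI of each of 15 genes, the 3 libraries pooled, with 95% Clopper-Pearson intervals for counting error only. Pdcd1 was found in 63 positive and 6 negative cells and Cd28 in 23 positive and 36 negative cells, while the values of Ccr2 lie close together.

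The OVA challenge of wild-type mice was read from WT OVA against WT PBS members, with ratios of CPM and exact 95% intervals that cover counting error only. Of 5764 genes with at least 20 UMIs over both libraries, 466 were more than 2-fold higher (8.08%) and 282 more than 2-fold lower (4.89%). Without mixed cells 230 of 4171 were higher (5.51%) and 271 lower (6.5%). The 3 type 17 genes of the rule stayed within 2-fold. Il17a had 322 CPM in PBS members and 343 in OVA members, a ratio of 1.06 (0.828 to 1.37), and Cd163l1 at 940 and 891 CPM, 0.948 (0.816 to 1.10). Il23r stood at 81.2 and 68.1 CPM, 0.839 (0.477 to 1.44). None of the 13 gamma delta list genes measured passed 2-fold, with or without mixed cells, and the values of the 3 rule genes are a description, since the rule chose on them.

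Of 14 immediate early and heat shock genes measured, 3 were more than 2-fold higher in WT OVA with all members (Fos, Dusp1, Atf3) and 7 without mixed cells, none of them a heat shock gene. Fos was at 692 and 1462 CPM, 2.11 (1.83 to 2.44), or 2.97 (2.30 to 3.83) without mixed cells, and Dusp1, a phosphatase that damps MAP kinases, had ratios of 2.56 (2.23 to 2.94) and 2.91. Other CD3 cells without mixed cells also held more Fos in WT OVA, at 143 and 332 CPM. The activation receptors Ctla4, Tnfrsf4, Tnfrsf9 and Cd6 were past 2-fold, 4 of 15 costimulation genes. Ctla4 stood at 105 and 234 CPM, 2.23 (1.55 to 3.26), and 2.90 without mixed cells. Itgae, the alpha E integrin of tissue-resident T cells, stood at 38.4 and 94.7 CPM, 2.46 (1.34 to 4.66), and Areg at 34.2 and 145 CPM, 4.24 (2.37 to 7.99), or 2.69 (1.21 to 6.17) without mixed cells, with 21 of its 49 WT OVA UMIs in 1 cell. Gpr183, an oxysterol receptor that guides cell position, was lower at 359 and 157 CPM, 0.437 (0.315 to 0.599), or 0.606 without mixed cells.

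Cycling genes were lower in WT OVA members, 5 of 8 past 2-fold with a median log2 ratio of -1.66, against 0.01 over all genes. Mki67, the proliferation antigen, stood at 105 and 8.88 CPM, 0.0848 (0.0169 to 0.263), and was found in 6 of 63 WT PBS and 1 of 85 WT OVA members, with up to 17 UMIs in a cell. Stmn1, a microtubule regulator, had a ratio of 0.330 (0.192 to 0.542). Top2a was found in 5 WT PBS and 8 WT OVA members although its ratio was 0.200, and these sums rest on few cells. Among other CD3 cells Mki67 was found in 12 of 561 WT PBS and 22 of 670 WT OVA cells.

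DJ-1 KO OVA members were compared with the same WT OVA members in the same way, so the 2 library comparisons share the WT OVA values. Of 4181 genes 330 were more than 2-fold higher (7.89%) and 526 lower (12.6%), and without mixed cells 153 of 2087 were higher (7.33%) and 204 lower (9.77%). The DJ-1 KO OVA values come from 31 cells and 160570 UMIs, or 23 cells without mixed cells. The genes with the highest ratios were Mmp12, Ccl24, Arg1, Spp1 and Gatm, several of them known from macrophages. Macrophage markers reached 10 or more summed UMIs in 8 DJ-1 KO OVA members. The macrophage gene Chil3 had 1904 UMIs in WT OVA and 8890 in DJ-1 KO OVA members, and 14 and 20 without mixed cells, while Ccl24 was then at 0 and Mmp12 at 1 UMI.

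The rule genes are again given as a description. Il17a stood at 343 CPM in WT OVA and 367 in DJ-1 KO OVA, 1.07 (0.769 to 1.48), and at 470.2 and 997 CPM without mixed cells, 2.12 (1.48 to 3.02). The latter rests on 11 of 23 DJ-1 KO OVA and 27 of 69 WT OVA cells with a UMI, with up to 17 UMIs in a cell. Cd163l1 stood at 891 and 417 CPM with all members, 0.469 (0.354 to 0.612), and at 1389 and 997 CPM without mixed cells, 0.718 (0.525 to 0.967). Blk stood at 278 and 137 CPM, 0.493 (0.295 to 0.790), and its interval included 1 without mixed cells, 0.668 (0.356 to 1.17). Of 11 gamma delta list genes 6 were past 2-fold lower (Blk, Sox13, Tmem176b, Actn2, Aqp3, Ramp1) with all members. Without mixed cells Tmem176b was lower and Lmo4 higher.

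Ccr2 and Maf were lower in DJ-1 KO OVA members under both settings. Ccr2 stood at 373 and 156 CPM, 0.418 (0.260 to 0.645), and had a ratio of 0.539 (0.297 to 0.920) without mixed cells. Maf, a factor that programs IL-17-producing gamma delta cells, stood at 379 and 156 CPM, 0.411 (0.257 to 0.635), and 0.530 (0.298 to 0.889) without mixed cells. Tmem176b, an ion channel-like membrane protein, had ratios of 0.403 (0.243 to 0.639) and 0.397 (0.184 to 0.768). Lmo4 went the other way at 423 and 779 CPM, 1.84 (1.44 to 2.36), and 2.45 (1.75 to 3.40) without mixed cells. For each of these genes the interval excluded 1 under both settings. Such intervals cover counting error only, and how many of all measured genes had one that excluded 1 was not counted.

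Without mixed cells, 3 of 13 immediate early and heat shock genes (Egr1, Zfp36, Nr4a1), 1 of 9 costimulation and activation genes (Nr4a1) and, of the transcription factors, Nfkbiz were more than 2-fold higher in DJ-1 KO OVA. Nfkbiz, an inducible NF-kappaB cofactor of type 17 cells, had ratios of 1.30 with all members and 4.27 (2.81 to 6.52) without mixed cells. Zfp36, which destabilizes cytokine RNA, had 1.42 and 3.13 (2.38 to 4.12), Nr4a1, a target of T cell receptor signals, 0.975 and 2.46 (1.69 to 3.55), and the chemokine receptor gene Cxcr4 1.49 and 3.09 (1.94 to 4.93). Fos was at 0.643 with all members and 1.33 without mixed cells, so its side of 1 depended on those cells.

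**Figure D5:**
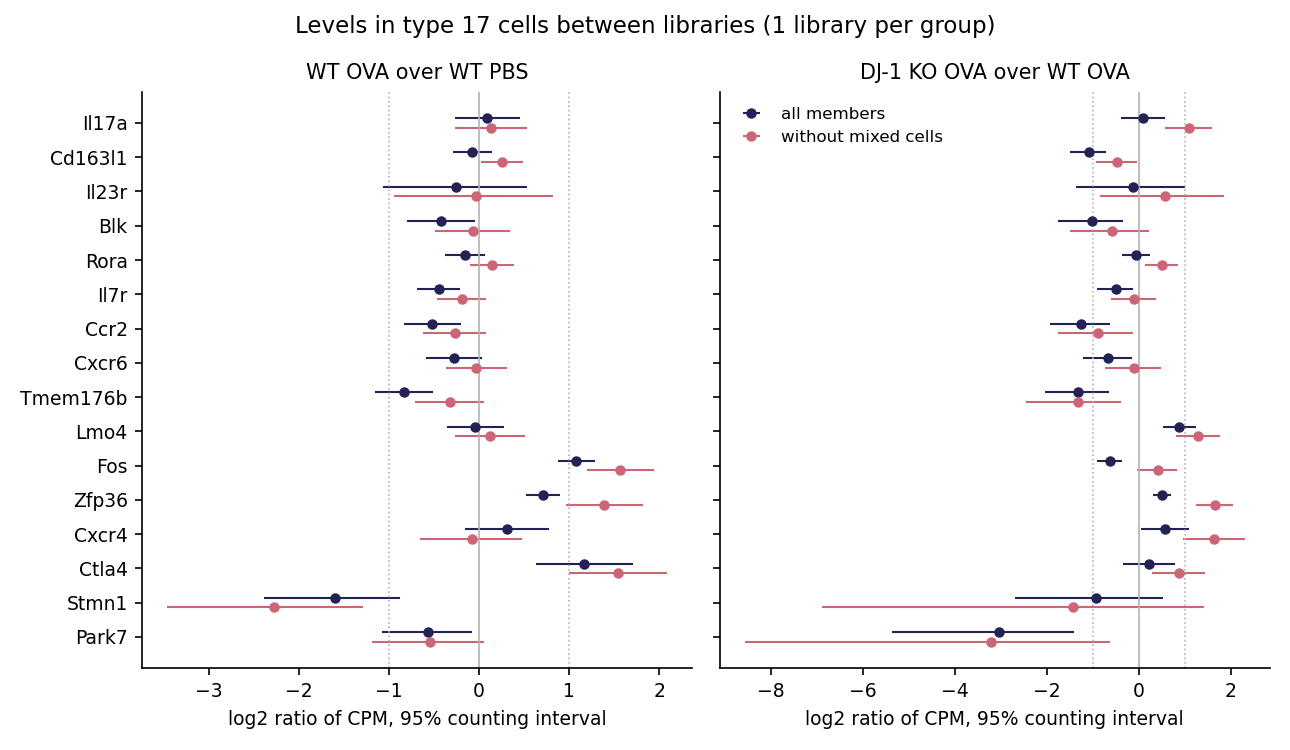
log2 ratio of CPM between libraries for 16 genes in type 17 cells, WT OVA over WT PBS (left) and DJ-1 KO OVA over WT OVA (right), with 95% counting intervals, for all members (dark points) and without mixed cells (light points); dotted lines mark 2-fold. Il17a lies at ratios of 1.06 and 1.07 with all members and at 2.12 on the right without mixed cells.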

How the data were processed

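Whole-lung cells were profiled as 3 libraries with the 10x Genomics 3' v3 kit, per the labels' protocols. The deposited matrices hold raw UMI counts for 27998 genes, made by the authors with Cell Ranger and STAR on mm10, per the submitters' processing notes, and carry software version 3.1.0 per the file headers. A cell was kept if it had 200 or more genes and no more than 20% of its UMIs from mitochondrial genes, less the lower-UMI cell of any barcode in both WT PBS and DJ-1 KO OVA. The members and the gene lists were chosen with earlier results of these data known. Counts were summed per library and class and tested with edgeR 4.0.16 (glmQLFit and glmQLFTest, TMM, filterByExpr, library as a term), which was tested on simulated data. DESeq2 1.42.0 was an alternative. Libraries were compared by CPM (UMIs per 1e6 UMIs) with exact Poisson and conditional binomial 95% intervals, which cover counting error only. A floor of 3 UMIs set bounds for genes at 0. Median UMIs per kept cell were 4128 in WT PBS, 2108 in WT OVA and 1653 in DJ-1 KO OVA. Scrublet (scanpy 1.11.5) was run as a check, and its doublets were kept in the main results. Positions come from RefSeq's table for GRCm38.p6. Named genes were the 4 markers, list members, the 10 largest called changes each way per edgeR comparison and the 5 highest and 5 lowest library ratios among genes with at least 30 UMIs. Any other named gene was chosen after its value was seen.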

Additional observations from a re-analysis of the deposited data

How the results depend on the processing

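Counts of called genes moved with the settings more than the directions did. Against other CD3 cells, 569 genes were called, 1099 without the filter on low counts, and 194 to 1036 with 1 library left out. Against Th2-like cells the 14 calls became 44 with DESeq2, 517 without the filter, 79 without mixed cells and 1 to 97 with 1 library left out. Against Foxp3 cells the 209 calls became 786 without the filter and 172 to 373 with 1 library left out. Between Cd163l1-positive and negative cells the 1 call became 3 with RLE size factors, 2 with DESeq2, 80 without the filter, 18 without mixed cells and 0 to 41 with 1 library left out. Past 2-fold, the 748 genes of WT OVA against WT PBS became 194 at a minimum of 50 UMIs over both libraries. The 856 of DJ-1 KO OVA against WT OVA became 244 at that minimum, 525 with at least 2 type 17 UMIs per cell and 357 without mixed cells. The share of members among CD3 cells was 5.92% in WT PBS and 7.88% after thinning, and 6.72% in WT OVA and 4.82% with at least 2 type 17 UMIs. Over CD3 cells past the zero-UMI conditions the shares were 10.1%, 11.3% and 6.67%, against 5.92%, 6.72% and 2.63% over all CD3 cells. The cause of these changes was not tested. Mixed cells, and the settings without them, were chosen after seeing the data.

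Among 2238 values of single genes, 2022 kept direction and side of the threshold, 150 lost the call, 58 moved and 8 reversed. Genes not measured under an alternative are not counted. In DJ-1 KO OVA against WT OVA, 57 genes were followed at most 10% mitochondrial UMIs but 22 without mixed cells. Of these 22, 16 kept their side, 4 moved and 2 reversed. For WT OVA against WT PBS the numbers followed were 49 and 31, and of the 31, 23 kept their side and 8 moved. On the log2 scale, Chil3 against other CD3 cells became -0.23 without mixed cells. With at least 2 type 17 UMIs, Ccl5 became -1.57 and Igfbp4 -0.17 in WT OVA against WT PBS, and Ccl5 became 0.83 in DJ-1 KO OVA against WT OVA. In the latter, the mean of per-cell CPM gave 0.037 for Ccr7 and 0.14 for Ly6a, and leaving out mixed cells gave 0.27 for Fosb and 0.65 for Ly6a. Between groups, no paired analysis was possible because each has 1 library, while the comparisons of cell classes held library as a term throughout. Depth limits the DJ-1 KO OVA values most, since 31 members held 160570 UMIs.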
